A study of Mus musculus with 6 samples.

Results

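The genes described here encode sarcospan and the proteins it is found with at the cell surface, namely dystroglycan, the sarcoglycans, dystrophin, its relative utrophin and the β-syntrophins. They were picked by gene symbol, as 9 of the 49548 genes in the table, and 7 of the 9 were among the 12614 genes with a normalised count of at least 10 in at least 3 libraries. They were picked with the contrast below in view, because Sspn was among the genes with the largest difference in it, so their differences are given as a description and their p-values are not printed. Synovial fibroblasts (SFs), the connective tissue cells of the joint lining, came from the ankles of CBA C57BL/6J mice that were 8 weeks old, carry a human TNF transgene (hTNFtg) and develop polyarthritis. All 6 libraries carried the transgene. In 3 of them the cells were untreated by their labels and in 3 they had been given 500 μM amisulpride, an antipsychotic drug that blocks dopamine receptors, for 48 hours. The cells were cultured and had been depleted of CD45+ cells at passage 1, and no wild-type SFs entered the contrast.

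In skeletal muscle, dystrophin ties the actin cytoskeleton inside the fibre to dystroglycan in the membrane, and dystroglycan holds on to laminin outside, so that force is carried from one to the other. Sarcospan and the sarcoglycans form a subcomplex in the membrane beside dystroglycan, and syntrophins and dystrobrevins bind dystrophin from the inside as adaptors. Loss of dystrophin or of some of the sarcoglycans causes muscular dystrophy. Many cells outside muscle carry utrophin, dystroglycan and ε-sarcoglycan.

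The values, called normalised counts, are reads per gene after normalisation by the authors, in whole numbers. They summed to between 3832980 and 4504242 per library, with 16851 to 18364 genes above 0. Amisulpride replicate 3 stood apart from the other libraries on the first principal component, at 73.9 against a range of −38.2 to 10.4, so values without it are given beside the results that rest on it. Fibroblast markers were high in all libraries, the highest being Col1a1, which encodes a chain of type I collagen, at 10814 to 35599. All 12 fibroblast markers could be tested with limma. None passed the study's thresholds, a log2 difference of at least 1 in size with an unadjusted p-value under 0.05, and 1, Prg4, had an unadjusted p-value under 0.05. Others named after their values were seen passed them in some settings. Lum, a matrix proteoglycan, passed at −1.07 with the replicate number as a block in the model and at −1.66 without amisulpride replicate 2. Prg4, a lubricant of the joint lining, passed at −1.21 without amisulpride replicate 3 and at −1.01 without untreated replicate 3, and Col3a1 passed at 1.02 without amisulpride replicate 1. Of 21 skeletal muscle markers 8 stood at 0 in every library, and the 21 together summed to 33 to 85 normalised counts in untreated and 37 to 74 in amisulpride-treated SFs. Myh1, Myh2, Myh4, Neb, Mb, Myod1 and Pax7, which encode proteins of the muscle fibre or factors of its precursors, were among those at 0. The highest marker, Acta1, had 44, 19 and 14 normalised counts untreated and 23, 8 and 11 treated, a log2 difference of −0.79. Named after their values were seen, Tnni2 and Mylpf went the other way. Tnni2 had 13, 2 and 0 against 13, 35 and 4, and Mylpf, too low to test, had 6, 2 and 0 against 7, 16 and 11. These are bulk samples, in which fewer cells of a type and less RNA per cell cannot be told apart.

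The sequences around the start of Sspn and Sgcb are shown first because these were the only members whose untreated and treated values did not overlap. They come from RefSeq on GRCm38.p6 and cover 250 bases before and 50 after an annotated start, with CG dinucleotides in capitals. Sspn has a pair of windows on the plus strand, at chr6:145931623-145931922 and chr6:145933872-145934171, and Sgcb has one on the minus strand, at chr5:73647688-73647987.
Sspn window 1: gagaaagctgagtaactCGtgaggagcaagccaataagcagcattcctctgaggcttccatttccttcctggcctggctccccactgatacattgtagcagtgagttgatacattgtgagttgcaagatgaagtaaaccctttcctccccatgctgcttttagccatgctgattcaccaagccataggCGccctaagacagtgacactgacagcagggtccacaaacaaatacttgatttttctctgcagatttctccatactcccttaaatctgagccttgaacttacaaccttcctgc
Sspn window 2: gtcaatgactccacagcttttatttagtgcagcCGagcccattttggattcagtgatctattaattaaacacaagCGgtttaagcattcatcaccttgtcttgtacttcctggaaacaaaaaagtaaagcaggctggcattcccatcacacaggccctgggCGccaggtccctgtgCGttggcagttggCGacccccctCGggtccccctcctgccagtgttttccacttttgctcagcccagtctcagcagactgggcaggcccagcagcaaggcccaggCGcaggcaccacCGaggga
Sgcb window 1: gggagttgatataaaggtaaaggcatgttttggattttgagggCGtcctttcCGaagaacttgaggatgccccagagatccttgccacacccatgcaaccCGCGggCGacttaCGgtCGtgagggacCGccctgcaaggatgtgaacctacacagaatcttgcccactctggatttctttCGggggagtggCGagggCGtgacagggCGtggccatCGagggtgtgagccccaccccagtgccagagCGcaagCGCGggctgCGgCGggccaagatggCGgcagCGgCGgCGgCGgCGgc

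The first Sspn window held 2 CG dinucleotides at a GC content of 47%, and 14.1% of 32851 promoter windows of the same length held fewer. The second held 8 at 54.7%, close to the median over all windows of 7 CG dinucleotides and 52.7%. The Sgcb window was of another kind, with 24 CG dinucleotides at 62.7%, and 80% of all windows held fewer. On both strands the letters GGGCGG, a GC box, occurred once in the Sgcb window and in neither Sspn window, against 35.7% of all windows with at least 1. TATAAA occurred once in the Sgcb window and in 13.6% of all windows. CANNTG, the E-box bound by many helix-loop-helix factors, occurred once in the second Sspn window, not in the first or in the Sgcb window, and in 72.3% of all windows. Among the other members, the windows of Dag1 held 47 and 30 CG dinucleotides, that of Sgcd 12, that of Utrn 2 and those of Dmd 2 and 14. The windows of the members thus ran from nearly free of CG to dense in it, and the 3 remaining members, Sgce, Sntb1 and Sntb2, had no entry.

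Sspn encodes sarcospan, a small protein that crosses the membrane several times and forms a subcomplex with the sarcoglycans. The gene (ENSMUSG00000030255) lies on the plus strand of chromosome 6, from 145931641 to 145965223 in mm10. Its normalised counts were 49, 75 and 64 in untreated replicates 1, 2 and 3 and 200, 262 and 211 in amisulpride replicates 1, 2 and 3. Every treated library was thus higher than every untreated one, with a wide gap between them. The means were 62.7 ± 13.1 and 224.3 ± 33.1 (SD, n = 3 each), a ratio of 3.58. On the log2(normalised count + 1) scale the difference was 1.83 ± 0.27 (SE), the 52nd highest among the 12614 genes. Replicates of the same number gave ratios of 4.08, 3.49 and 3.30, so the size of the difference was alike in all of them. It was 1.87 ± 0.29 without amisulpride replicate 3, and 1.67 to 1.97 over all other settings and omissions tried.

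**Figure D1:**
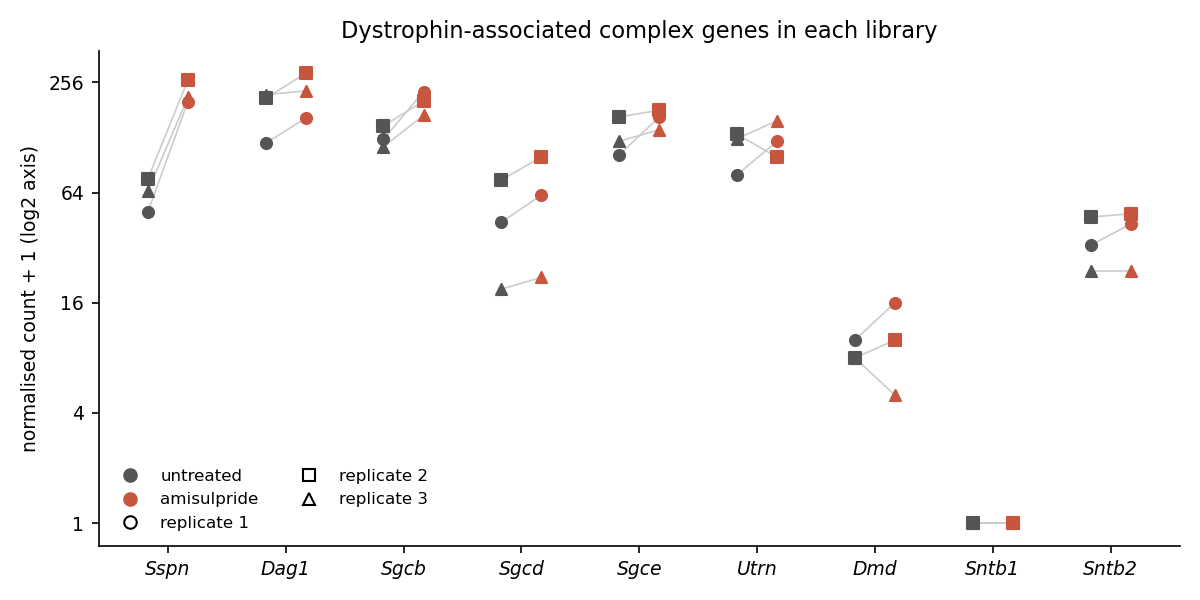
Normalised count plus 1 on a log2 axis for each of the 9 genes in each of the 6 libraries, with untreated libraries in grey, amisulpride-treated ones in red, a symbol for each replicate number and a line joining libraries of the same number. Sspn runs from 49 to 75 in the untreated libraries and from 200 to 262 in the treated ones, whereas Dag1, Sgcd, Sgce, Utrn, Dmd and Sntb2 overlap between the groups and Sntb1 is listed at 0.

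The sarcoglycans are the membrane proteins that sarcospan binds most closely. Sgcb, which encodes β-sarcoglycan (ENSMUSG00000029156, chromosome 5, 73632749 to 73647790, minus strand), had normalised counts of 124, 147 and 113 in untreated and 227, 201 and 168 in amisulpride-treated SFs. The groups did not overlap, although the lowest treated library lay close to the highest untreated one. The means were 128 ± 17.3 and 198.7 ± 29.6 (SD, n = 3 each), a ratio of 1.55 and a log2 difference of 0.63 ± 0.25 (SE). Its difference kept between 0.53 and 0.74 over all settings and omissions tried.

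Sgce encodes ε-sarcoglycan, the form most used outside striated muscle (ENSMUSG00000004631, chromosome 6, 4674350 to 4747207, minus strand). Its normalised counts were 102, 165 and 121 in untreated and 164, 179 and 140 in treated libraries. The groups overlapped, since untreated replicate 2 exceeded treated replicates 1 and 3, but each treated library was above the untreated one of its number. The log2 difference was 0.34 ± 0.27 (SE), with means of 129.3 ± 32.3 and 161 ± 19.7 (SD, n = 3 each).

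Sgcd encodes δ-sarcoglycan (ENSMUSG00000020354, chromosome 11, 46896253 to 47988969, minus strand). It had normalised counts of 43, 74 and 18 in untreated and 61, 99 and 21 in treated SFs. The values differed more between replicate numbers than between groups, with replicate 3 lowest and replicate 2 highest in both. The log2 difference of 0.37 was smaller than its SE of 0.59, and with the replicate number as a block in the model the SE became 0.33. The ratios by number were 1.42, 1.34 and 1.17. Its sign rested on which libraries were kept, as the difference was 0.99 when amisulpride replicate 3 was left out, −0.16 when untreated replicate 3 was, and −0.11 when amisulpride replicate 2 was.

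Because Sspn was picked for its large difference in this contrast, its balance with its closest partners is given only as a description. A separation of the groups in it adds no support to the difference of Sspn. Per 100 normalised counts of Sgcb, Sgcd and Sgce together, it had 18.2, 19.4 and 25.4 in the untreated libraries and 44.3, 54.7 and 64.1 in the treated ones. The ratio thus went from 21 ± 3.84 to 54.4 ± 9.95 (SD, n = 3 each), with no overlap. This ratio is within a library and does not depend on the scaling if each library was scaled by a single factor, which is inferred. It is a ratio of reads and not of molecules. Sgcb made up 38.1% to 46.1% of their sum in untreated and 42% to 51.1% in treated libraries, which overlap, and its share was higher in the treated library of each replicate number. The share of Sspn in the sum over all 9 genes was 8.81%, 8.78% and 9.29% untreated and 20.2%, 22.2% and 22.1% treated. Without Sspn the sum over the other 8 genes was 507, 779 and 625 untreated and 792, 921 and 742 treated. These overlap, and the treated library was higher for each replicate number.

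Dag1 encodes dystroglycan, which is cut into an outer subunit that binds laminin and a membrane subunit that binds dystrophin or utrophin. The gene (ENSMUSG00000039952) lies on the minus strand of chromosome 9, from 108204634 to 108263958. It had normalised counts of 118, 208 and 218 in untreated and 162, 286 and 229 in treated libraries, which overlap. The means were 181.3 ± 55.1 and 225.7 ± 62.1 (SD, n = 3 each), and the log2 difference of 0.33 was about the size of its SE of 0.32. Each treated library was higher than its untreated counterpart, by ratios of 1.37, 1.38 and 1.05.

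Utrn encodes utrophin, which can take the place of dystrophin between actin and dystroglycan (ENSMUSG00000019820, chromosome 10, 12382188 to 12861735, minus strand). Its normalised counts were 79, 132 and 125 in untreated and 121, 99 and 157 in treated libraries. One replicate number was lower with treatment and the other two were higher, with ratios of 1.53, 0.75 and 1.26. The log2 difference was 0.17 ± 0.30 (SE), and it was −0.06 without untreated replicate 1.

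Dmd, the gene of dystrophin itself (ENSMUSG00000045103, chromosome X, 82948870 to 85206141, plus strand), was barely present. It was listed at 9, 7 and 7 normalised counts in untreated and 15, 9 and 4 in treated libraries, below the minimum for testing. These values lie near the 2.5 to 5.37 normalised counts that 3 reads were worth, so no difference was detectable at this depth. Its replicate numbers went in both directions, with ratios of 1.67, 1.29 and 0.571.

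The syntrophins are adaptors that bring signalling proteins to dystrophin and utrophin. Sntb2 encodes β2-syntrophin (ENSMUSG00000041308, chromosome 8, 106935750 to 107019714, plus strand) and had normalised counts of 32, 46 and 23 in untreated and 42, 48 and 23 in treated libraries. The groups overlapped and replicate 3 did not differ at all, and the log2 difference was 0.15 ± 0.40 (SE). Sntb1, which encodes β1-syntrophin (ENSMUSG00000060429, chromosome 15, 55638843 to 55906949, minus strand), was listed at 0 in all 6 libraries. In GENCODE M21 its 3′ end lies 2455 bases beyond the end the table gives, so reads from that end were not all within the gene as counted.

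**Figure D2:**
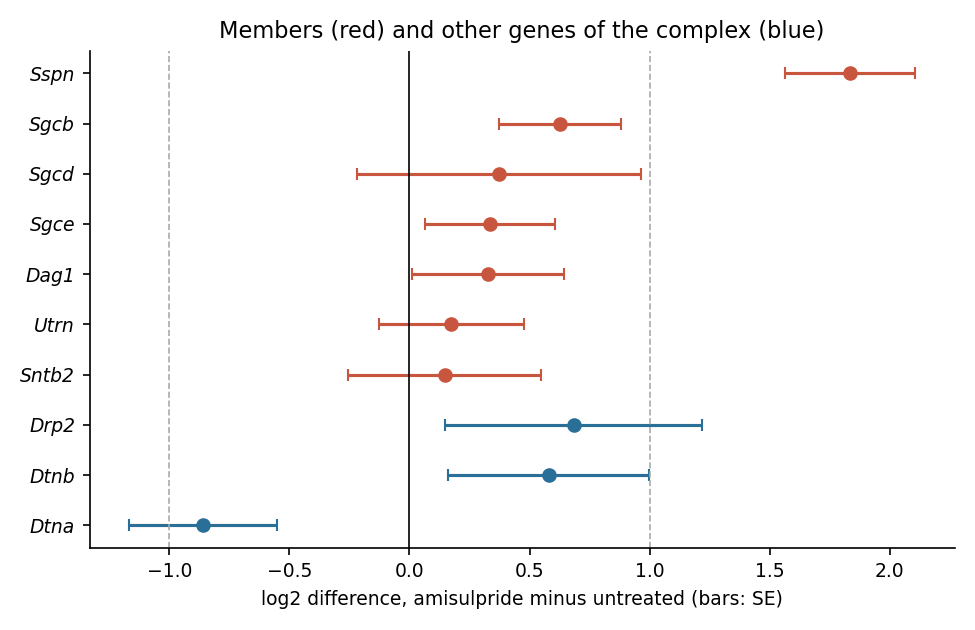
Log2 difference of amisulpride-treated minus untreated SFs with its SE for the 7 members past the minimum, in red, and for 3 other genes of the complex past it, in blue, with dashed lines at −1 and 1. Sspn at 1.83 is the only gene beyond the dashed lines, the other members lie between 0.15 and 0.63, and Dtna is lowest at −0.86.

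Across the 7 members past the minimum all differences were above 0, at a median of 0.34 and a range of 0.15 to 1.83, where 50.1% of all genes tested were above 0 and their median was 0.0016. Sspn was the only member past the study's thresholds, which 5.7% of all genes passed, 2.69% upwards and 3.01% downwards. It was also the only one with an adjusted p-value under 0.05, against 0.285% of all genes, 0.0951% upwards and 0.19% downwards. Without untreated replicate 2 or 3 that call was lost, as 0 genes had such a value. It was also lost without amisulpride replicate 2, where 0 genes were called upwards. Upward calls numbered 1 without untreated replicate 1, and 6 and 50 without amisulpride replicates 1 and 3. Whether Sspn was among these is not given, as no p-value is printed for members. Groups did not overlap for 2 of the 7, Sspn and Sgcb, where 7.8% of all genes were higher and 8.66% lower with no overlap. In 5 of the 7 each treated library was above the untreated one of its number, against 16.9% of all genes. Nothing is read from these counts, because the members were chosen on this contrast. The median of the members was 0.46 without amisulpride replicate 3, and 0.18 to 0.52 over the omissions of 1 library.

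**Figure D3:**
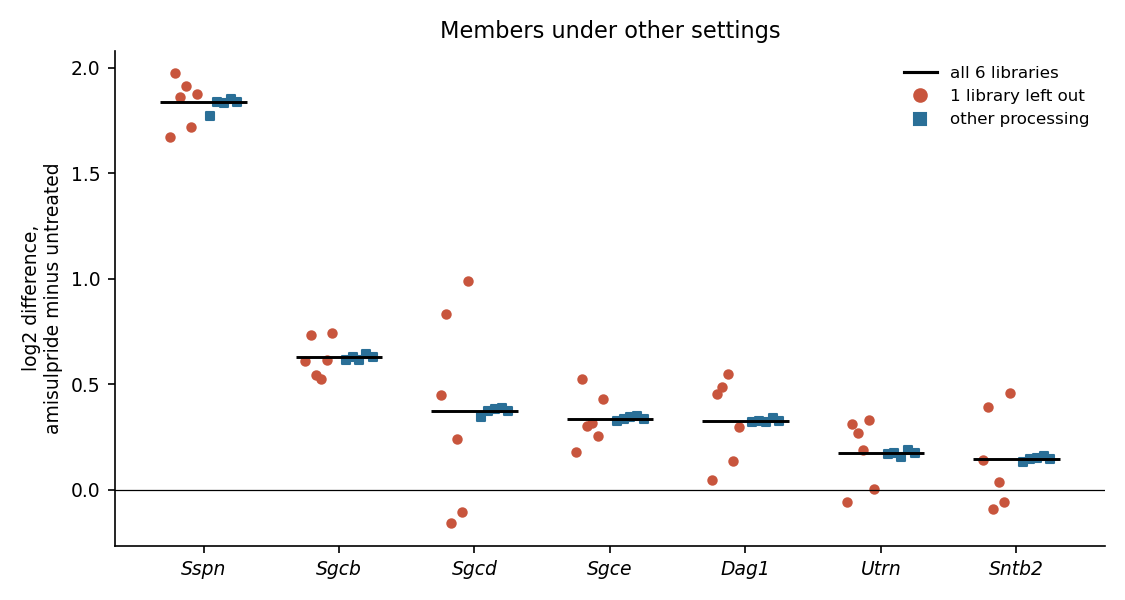
Log2 difference of the 7 members, with a black line for all 6 libraries, red circles for the omission of each library in turn and blue squares for the other processing. Sspn stays between 1.67 and 1.97 and Sgcb between 0.53 and 0.74, whereas Sgcd runs from −0.16 to 0.99 and Utrn and Sntb2 also cross 0.

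Members followed Sspn to different degrees from library to library. Pearson's r of log2(normalised count + 1) with Sspn over the 6 libraries, which share the 2 groups, was 0.887 for Sgcb, 0.737 for Sgce, 0.579 for Dag1, 0.351 for Utrn, 0.291 for Sgcd and 0.261 for Sntb2. The 5 protein-coding genes most like Sspn by the same measure were Prss35 at 0.9898, Nln at 0.9896, P4htm at 0.9894, Mettl7a1 at 0.989 and Sun2 at 0.9877. As genes picked for likeness to Sspn, all 5 were higher in every treated library. Prss35, which encodes a protease-like protein, had normalised counts of 24, 36 and 28 untreated and 75, 112 and 73 treated. Nln, the peptidase neurolysin, had 21, 26 and 26 against 50, 70 and 63. Sun2, which encodes a protein that links the nuclear lamina to the cytoskeleton, had 180, 199 and 218 against 360, 412 and 356. P4htm, a prolyl 4-hydroxylase of the endoplasmic reticulum, had 3, 5 and 3 against 12, 16 and 14. It passed the minimum through the treated libraries alone, and its untreated values lie near what 3 reads were worth. Mettl7a1 had 43, 65 and 53 against 121, 131 and 138.

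The neighbours of Sspn on chromosome 6 did not pass the thresholds. Bhlhe41, a transcriptional repressor of the circadian system 66.1 kb before Sspn, had 61, 58 and 39 normalised counts untreated and 83, 92 and 91 treated. These do not overlap, where 7.8% of all genes were higher with no overlap. The log2 difference of 0.77 ± 0.29 (SE) had an unadjusted p-value of 0.0227 and an adjusted one of 0.35 in limma. It thus missed the thresholds by its size alone. Itpr2, a calcium channel of the endoplasmic reticulum 143.1 kb after Sspn, had 76, 47 and 76 against 85, 70 and 125, a log2 difference of 0.48 ± 0.32 (SE) with an adjusted p-value of 0.638 in limma. None of the 12 genes that overlap a member covered its 3′ end. Within Sspn these were the antisense gene Sspnos and Gm43931, both at 0 in all libraries. No gene that overlaps Sspn in the table thus held any reads. In GENCODE M21 the 3 protein-coding transcripts of Sspn have 3 starts and a single 3′ end, so that reads near the end do not tell them apart.

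Other genes of the complex were tested with limma as a list of 10, chosen from general knowledge but with earlier results of these data known. Only 4 had enough counts to test, none passed the thresholds, 1 had an unadjusted p-value under 0.05, and their median log2 difference was −0.01. Dtna, which encodes α-dystrobrevin, an adaptor that binds dystrophin and the syntrophins, had 148, 116 and 137 normalised counts untreated and 106, 70 and 52 treated. Its treated libraries all lay below its untreated ones, with a log2 difference of −0.86 ± 0.31 (SE). The adjusted p-value was 0.311 in limma, or 0.155 with the replicate block. Without amisulpride replicate 1 the difference was −1.13 and passed the study's thresholds, and without amisulpride replicate 3 it was −0.62.

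Dtnb, the gene of β-dystrobrevin, had 22, 21 and 12 normalised counts untreated and 28, 35 and 20 treated. Its log2 difference was 0.58 ± 0.42 (SE), with an adjusted p-value of 0.662 in limma. Drp2, a relative of dystrophin known from Schwann cells, had 8, 5 and 10 against 10, 15 and 13, at 0.68 ± 0.54 (SE) and an adjusted p-value of 0.696 in limma. The genes that the muscle complex uses were at or near 0. Sgca, which encodes α-sarcoglycan, had 4, 0 and 8 untreated and 10, 0 and 11 treated, and Nos1, the neuronal nitric oxide synthase, had 1, 3 and 1 against 2, 0 and 0. Sntg2, the gene of γ2-syntrophin, had 6, 7 and 2 against 1, 0 and 0, too low to test. Sgcz and Sntg1 were listed at 0 in all libraries.

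Dystroglycan binds laminin only once enzymes of the endoplasmic reticulum and Golgi have built a sugar chain on it. Of 19 genes for this, 17 were tested with limma and none passed, with 1 at an unadjusted p-value under 0.05, a median of −0.04 and a range from −0.65 to 0.81. The highest in amount was Dpm3, a subunit of the enzyme that makes the mannose donor, at 271, 501 and 421 normalised counts untreated and 428, 394 and 453 treated. Of the 17 genes for laminins and other ligands 11 were tested and none passed, nor did any have an unadjusted p-value under 0.05 in limma, and their median was −0.07. Bgn, which encodes the matrix proteoglycan biglycan, was the highest of them, at 12858, 11359 and 14561 untreated and 12170, 12729 and 11197 treated. The outside partners of dystroglycan thus gave no difference that the test called.

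Integrins and their linkers are the other main route from matrix to actin. Of 17 such genes 16 were tested and none passed, nor did any have an unadjusted p-value under 0.05 in limma, and their median was −0.06, or −0.25 without amisulpride replicate 3. Itgb1, the β1 chain shared by most matrix-binding integrins, was highest, at 1040, 2405 and 2512 normalised counts untreated and 1752, 1649 and 5256 treated. With the replicate number as a block 1 gene passed, Synm, which encodes synemin, an intermediate filament protein that binds dystrophin. It was named after its values were seen, and had 32, 32 and 14 against 65, 96 and 20, a log2 difference of 1.01 whose adjusted p-value was 0.541 in limma without the block and 0.184 with it. Of 7 caveola genes 5 were tested and none passed in limma, with 1 at an unadjusted p-value under 0.05. The highest of them, Ptrf, which encodes the caveola coat protein cavin-1, had a log2 difference of 0.03.

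Of 13 genes for membrane repair or other muscular dystrophies 9 were tested in limma, 1 was called higher and 1 lower, and the median was 0.07. Emd, which encodes emerin of the inner nuclear membrane, had 674, 1428 and 1256 normalised counts untreated and 1752, 1846 and 3964 treated. The difference was 1.13 ± 0.37 (SE), with an adjusted p-value of 0.265 in limma, or 0.0489 with the replicate block. It was 0.75 without amisulpride replicate 3 and 0.80 without untreated replicate 1, both under the study's thresholds. Col6a3, which encodes a chain of type VI collagen, had 731, 550 and 883 against 431, 270 and 288. Its difference was −1.13 ± 0.28 (SE), with an adjusted p-value of 0.13 in limma, or 0.0298 with the replicate block, and it missed the thresholds at −0.97 without untreated replicate 3. The other chains of this collagen in the list, Col6a1 and Col6a2, did not pass.

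**Figure D4:**
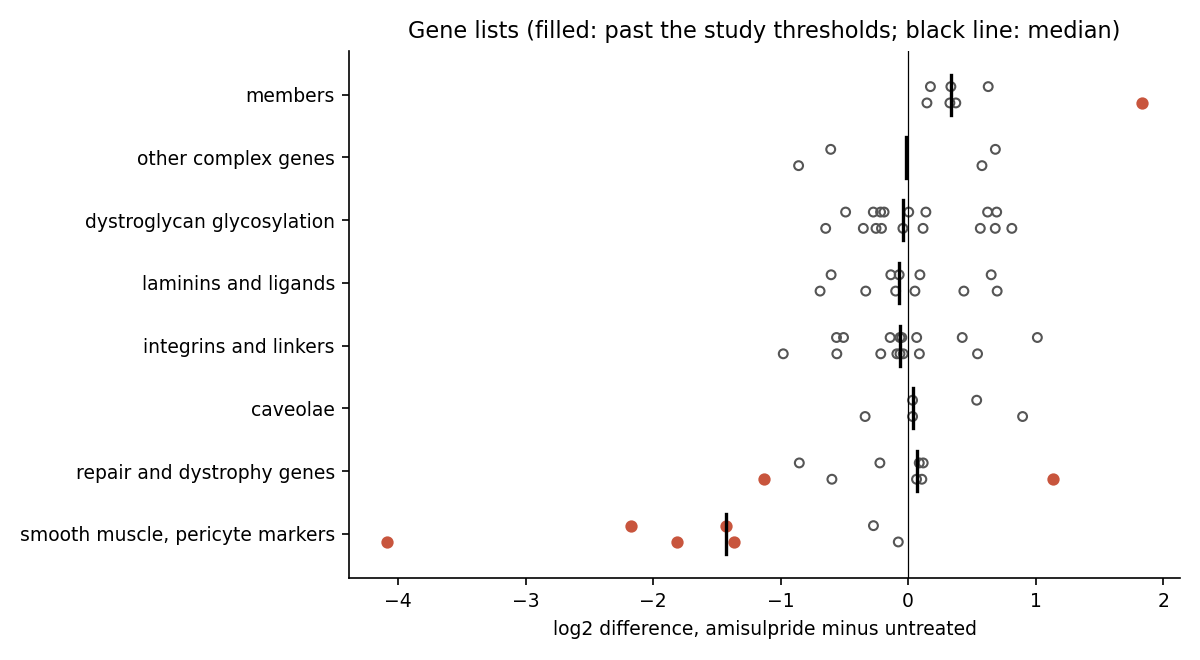
Log2 difference of amisulpride-treated minus untreated SFs for each tested gene of the members, 6 related gene lists and the smooth muscle and pericyte markers, with filled red points for genes past the study's thresholds and a black line at each list's median. The medians of the 6 related lists lie between −0.07 and 0.07, that of the members at 0.34, and 5 of the 7 smooth muscle and pericyte markers are filled, all below 0.

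Several markers of contractile cells moved in the opposite direction to Sspn. Of 12 smooth muscle and pericyte markers 7 were tested and 5 were lower by the study's thresholds, and the 12 together summed to 6686 to 11904 normalised counts untreated and 1759 to 5594 treated. Lmod1, an actin nucleator of smooth muscle, fell from 65 ± 14 to 13.7 ± 3.79 (SD, n = 3 each), with a log2 difference of −2.18 and an adjusted p-value of 0.0368 in limma, which was 0.00957 to 0.249 on leaving out 1 library. Cnn1, Tagln, Mcam and the highest marker, Acta2, which is smooth muscle actin and also marks contractile fibroblasts, had log2 differences of −4.09, −1.81, −1.37 and −1.43. Cnn1 was at 23, 1 and 27 in the treated libraries, the lowest of them below what 3 reads were worth, and its difference was −2.86 without amisulpride replicate 2. The adjusted p-values of these 4 were 0.0652, 0.0761, 0.0764 and 0.225 in limma, and 0.00021, 0.00135, 0.0191 and 0.0142 with the replicate block. Without amisulpride replicate 2 the difference of Acta2 was −0.93, under the thresholds. Myh11, the myosin that defines mature smooth muscle, was at 0 or 1 in all libraries. Smtn and Notch3, named after their values were seen, were tested and did not pass, at −0.27 and −0.08, with overlapping groups. Among those too low to test, Des had 2, 2 and 0 normalised counts untreated and 9, 3 and 0 treated. Rgs5, also too low to test, had 12, 9 and 8 against 7, 8 and 2.

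Other cell types gave little or mixed signal. The 9 Schwann cell markers summed to 74 to 120 normalised counts untreated and 66 to 83 treated, and of the 3 tested 1 passed, Mbp of the myelin sheath, at −1.10. The 8 endothelial markers summed to 4 to 14 and 2 to 17 and none could be tested. The 8 adipocyte markers summed to 308 to 329 and 138 to 254, mostly from Fabp4, with Adipoq at 0. Named after their values were seen, Pparg and Retn went the other way but were too low to test. Pparg had 5, 1 and 4 normalised counts untreated and 6, 11 and 23 treated, and Retn 0, 0 and 1 against 4, 0 and 2. The 12 myeloid markers summed to 2365 to 4218 and 2357 to 4246, mostly from Lyz2, and 2 of them were lower, Cd14 at −1.74 and Csf1r at −1.01. The other myeloid markers went both ways and 6 of the 12 had a difference above 0. C1qc, Adgre1 and C1qb, named after their values were seen, were at 0.95, 0.83 and 0.75 and were higher in the treated library of each replicate number. C1qc passed the thresholds, at 1.38 and 1.25, when untreated replicate 1 or amisulpride replicate 2 was left out, and Adgre1 passed them, at 1.17 and 1.04, when untreated replicate 1 or amisulpride replicate 3 was. Mbp missed the thresholds without untreated replicate 1 or 3 or amisulpride replicate 2, at −0.98, −0.97 and −0.96, and Csf1r missed them on every omission other than that of amisulpride replicate 3. The part of these markers in the values of Sspn and its partners was not tested.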

How the data were processed

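RNA was measured in 6 libraries, 3 untreated and 3 given amisulpride, made with a 3′ end kit and read on an Ion Proton. Reads near transcript ends are not expected to rise with gene length, so levels were not divided by length. Where a gene is called highest or a ratio between genes is given, reads are compared, not molecules. The authors mapped reads to mm10 with TopHat2 and Bowtie2 and counted them per gene. Through metaseqr they normalised the counts, by a method not named, and tested them with DESeq. The values deposited are a score: reads per gene after the authors' normalisation, in whole numbers. That each library was scaled by 1 factor and then rounded is inferred from the steps between low values and is not stated by the authors. A GC fraction per gene was deposited beside them. The authors' p-values, adjusted p-values and fold changes were not used, nor were 12 columns of the same libraries on other scales. The labels say no treatment where the study's methods speak of vehicle.

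A limma model (version 3.58.1, R 4.3.3) with a variance trend was fitted to log2(normalised count + 1) over genes with at least 10 in at least 3 libraries. Tests were two-sided, with Benjamini-Hochberg adjustment over 12614 genes. An exact permutation test with 3 against 3 cannot go below 0.1. The study's methods speak of biological replicates, but the labels do not say that libraries came from separate animals or cultures, so p-values measure only the spread between these samples, which may be technical. Deviations from the group means correlated at 0.229, 0.24 and 0.201 for libraries of the same replicate number and at −0.149 to −0.0777 for others. Because deviations within a group sum to 0, positive values for the same number push the others below 0, so the negative values are not separate evidence. By the values for the same number alone the libraries appear to be paired, but the main fit did not use the pairing. The replicate number as a block was an alternative, with another pseudocount, no filter, quantile and median-ratio scaling, and the omission of each library.

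One read was worth 0.833 to 1.79 normalised counts, estimated from the steps between low values, for about 2.52 to 4.72 M reads per library. The step of untreated replicate 1 was uncertain. A count of 0 allows 3 reads, for counting error only, since reads carried no molecular identifiers.

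The members and the gene lists were chosen with earlier results of these data known. Named genes are all members, the other genes of the complex except 2 that are not reported here, in each further list the genes past the study's thresholds and the one with the highest mean, the 5 protein-coding genes most correlated with Sspn, its tested neighbours and overlapping genes, and of marker lists up to 4 past the thresholds and the highest. Promoter sequences are those of RefSeq on GRCm38.p6, with entries for 6 of the 9 members.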

Additional observations from a re-analysis of the deposited data

How the results depend on the processing

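Over all genes, 36 had an adjusted p-value under 0.05 in limma. This became 57 with a pseudocount of 5, 57 without a filter, 66 with quantile scaling, 263 with the replicate block, and 0 to 120 on leaving out 1 library, with 0 without untreated replicate 2 or 3, 1 without untreated replicate 1, 17 and 6 without amisulpride replicates 1 and 2, and 120 without amisulpride replicate 3. At an unadjusted p-value under 0.05 the fits without untreated replicates 2 and 3 held 1083 and 911 genes. By the study's thresholds 339 genes were higher and 380 lower, or 621 and 692 without a filter, and 309 to 485 and 254 to 515 on leaving out 1 library. The number of members past the thresholds was 1 in every setting. The other genes of the complex had 1 past the thresholds without a filter and 0 to 1 on leaving out 1 library, with Dtna past them without amisulpride replicate 1. That omission also brought Dpm2 (1.17) and Gmppa (1.01) of dystroglycan glycosylation (0 to 2), Lama2 (1.46) of laminins and ligands (0 to 1) and Itga7 (−1.32) of integrins and linkers (0 to 1) past them. In the last list Synm (1.66) passed without amisulpride replicate 3. Caveolae (0 to 1) had Prkcdbp at 1.19, 1.09 and 1.05 without amisulpride replicate 1 and untreated replicates 2 and 3, and Cav1 at 1.12 without amisulpride replicate 2. Membrane repair and dystrophy had 1 to 2, with Dysf (−1.39) past the thresholds without amisulpride replicate 3, and 1 with quantile scaling, where Emd was at 0.99. The replicate block gave 1 for integrins and linkers and left the counts of the other related lists as they were. Among marker lists it added Lum (−1.07), Ptprc (−1.16), Gldn (−1.74) and Tnni2 (1.97). Of 77 values of the members under the alternatives, 72 kept their sign and 5, of Sgcd, Utrn and Sntb2, did not. The cause of these changes was not tested. With 2.52 to 4.72 M reads per library, values near 10 normalised counts rest on few reads, and Dmd, below the minimum, was not compared.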
